A study of Mus musculus with 23 samples.

Results

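Tumour cells of the T12-LOH organoid line were compared with tumour cells of the T6-LOH line, both grown with the PSC4 line of pancreatic stellate cells (PSCs). PSCs are the fibroblast-like cells of the pancreas that surround tumour glands. The comparison held 6 organoid libraries, 3 of each line, out of 11 organoid libraries and 23 libraries in the whole series. The T12-LOH libraries came from cultures with PSC4 Rosa cells, which have wild-type Egfr, and with the Egfr knockout clones PSC4 KO A3 and PSC4 KO B4. The T6-LOH libraries came from cultures with the same 3 PSC cell lines, and the PSC line therefore served as a block. Tumour organoids and PSCs had shared Matrigel for 3.5 days, in medium that the labels call reduced or control, before the fractions were separated by flow sorting. The Egfr knockout was in the PSCs, and no label describes an edit in either organoid line. Each line is 1 mouse pancreatic tumour organoid line, so a difference between them is a difference between 1 tumour line and another. The labels do not expand LOH. They also do not say whether libraries came from separate cultures, and the p-values measure the spread between libraries only.

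Pancreatic ductal tumours are commonly sorted into a classical and a basal-like subtype. Classical tumours keep endodermal transcription factors such as GATA6, FOXA2 and HNF4A and make mucins and trefoil factors of gastric or intestinal type. Basal-like tumours lose these genes in part and gain squamous keratins, mesenchymal genes and inflammatory signalling. Tumour organoids depend to different extents on growth factors of the EGFR family, on Wnt and on TGF-beta signals, which PSCs can supply.

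Library totals ran from 23814409 to 34643087 counts. The summed level of 9 epithelial markers was 14650 ± 1224 counts scaled to library size (CPM) in T12-LOH and 13854 ± 746 CPM in T6-LOH libraries (SD, n = 3 each), against 50.3 to 152 CPM in the 6 matched PSC libraries. The summed level of 14 PSC markers was 3.12 to 8.06 CPM in T12-LOH and 2.29 to 5.45 CPM in T6-LOH libraries, against 10769 to 19726 CPM in the matched PSC libraries. Both lines thus carried the markers of tumour epithelium, with PSC markers near 0. In bulk libraries, fewer cells of a type and less RNA per cell cannot be told apart. Reads from mitochondrial genes made up 2.38 ± 0.243% of counts in T12-LOH and 3.66 ± 0.218% in T6-LOH libraries (SD, n = 3 each). The groups did not overlap, and the 2-sided exact permutation test gave p = 0.1, the smallest value that 20 splits allow.

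A large share of genes separated the lines. Of 14020 genes tested with edgeR's quasi-likelihood test, 8922 passed a Benjamini-Hochberg adjusted p of 0.05 (63.6%), and in 9539 the CPM ranges of the lines did not overlap (68.0%). Of all tested genes, 4485 were higher (32.0%) and 4437 lower in T12-LOH (31.6%). At 2-fold or more, 2610 genes were called (18.6%), 1423 of them higher (10.1%) and 1187 lower in T12-LOH organoids (8.47%). In 2609 of the 2610 the direction was the same with all 3 PSC lines. That is no separate check, since the genes were called on the same libraries. The median log2 fold change over all tested genes was 0.01. Every log2 fold change (log2FC) is T12-LOH over T6-LOH grown with PSC4 unless another comparison is named, and a ± after it is its SE. With so many genes called, the counts of the gene lists below are read against these percentages.

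T6-LOH organoids had also been grown with a separate PSC line, PSC5, in 3 libraries that took no part in the test. For 2503 of the 2610 genes (95.9%), the mean of those libraries lay nearer to the T6-LOH mean with PSC4 than to the T12-LOH mean. For another organoid line, T69A, with 2 libraries grown with PSC4 cells, the mean lay nearer to T6-LOH for 1517 genes and nearer to T12-LOH for 1093.

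**Figure D1:**
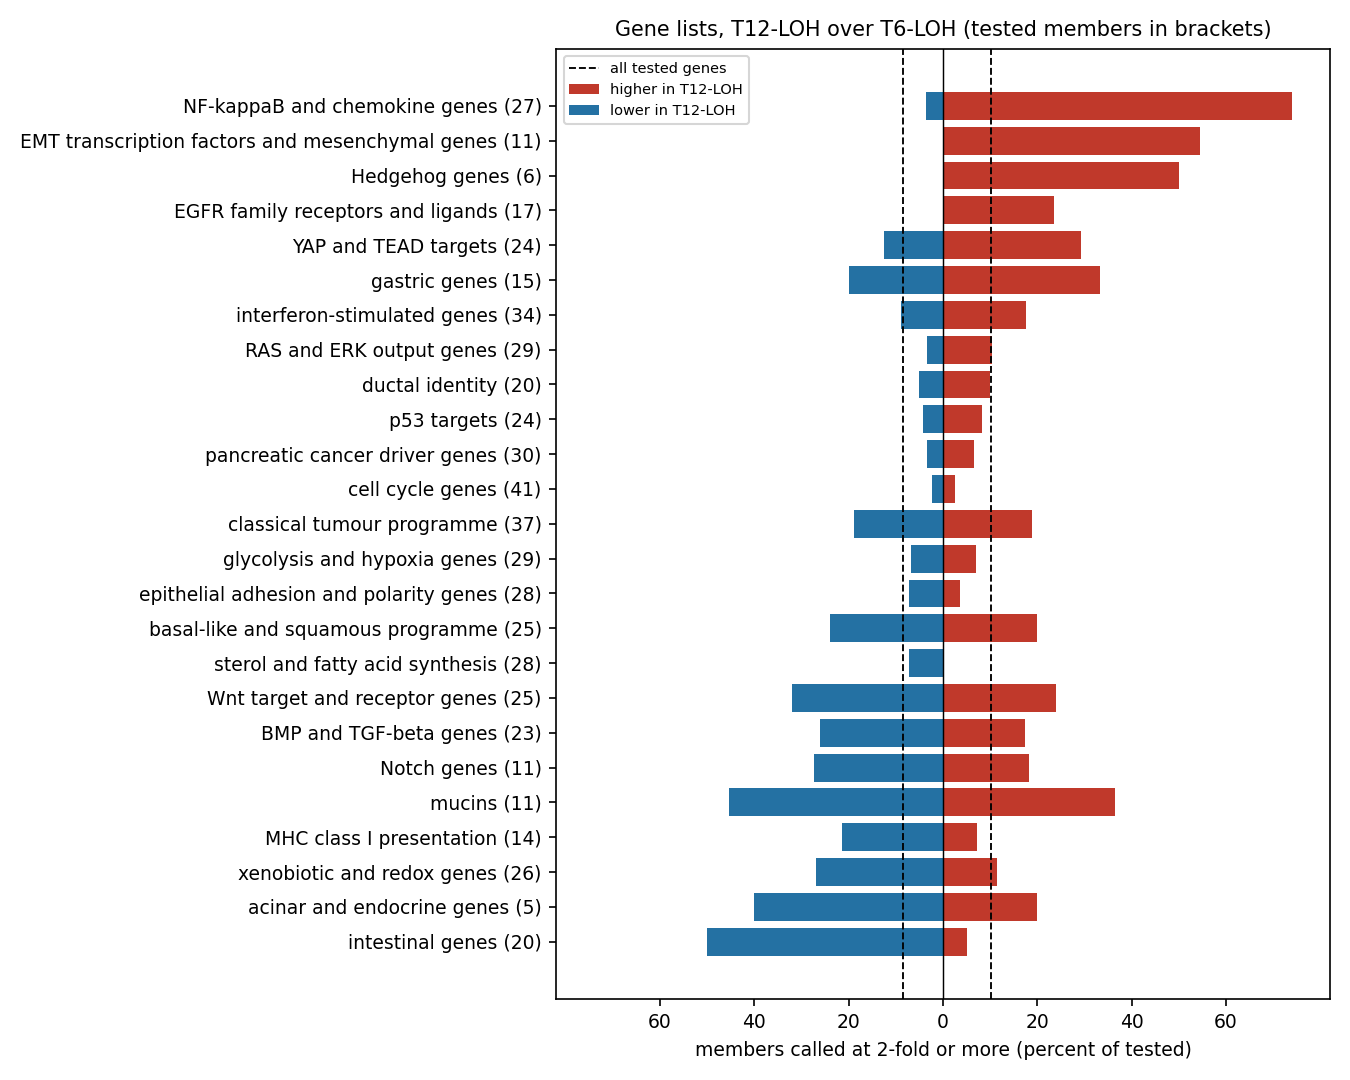
Share of tested members of each gene list that were called at 2-fold or more, with genes higher in T12-LOH to the right in red and genes lower in T12-LOH to the left in blue. Dashed lines give the shares over all tested genes, 10.1% and 8.47%; 20 of 27 NF-kappaB and chemokine genes lie on the higher side and 10 of 20 intestinal genes on the lower side.

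The classical tumour programme did not move one way. Of its 37 tested members, 13 were higher (35.1%) and 16 lower in T12-LOH (43.2%), against 32.0% and 31.6% of all genes. In each direction 7 reached 2-fold (18.9%), against 10.1% and 8.47% of all genes, and the median log2FC was -0.24. Among its members, the transcription factors Gata6 and Foxa2 were higher in T12-LOH, and the claudin Cldn18 and the transcription factor Foxq1 were lower. Gata6, an endodermal factor whose loss marks basal-like human tumours, had 12.3, 15.6 and 15.6 CPM in T12-LOH with Rosa, KO A3 and KO B4 cells, against 0.677, 0.278 and 0.173 CPM in T6-LOH. The lowest T12-LOH library was far above the highest T6-LOH library, with a log2FC of 5.21 ± 0.38 and an adjusted p of 0.00011. Without the Rosa library of either line, which in the blocked fit removes the whole Rosa pair, the log2FC came to 6.10 or 6.09. T6-LOH with PSC5 stayed at 0.364 to 0.811 CPM, while T69A had 31.1 and 31.6 CPM.

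Foxa2, a forkhead factor of gut and pancreas development, had 38.0, 37.6 and 37.0 CPM in T12-LOH and 7.95, 8.57 and 6.29 CPM in T6-LOH. Its log2FC was 2.31 ± 0.10 (adjusted p = 2.2e-06), with little spread within either line. Gata4, a relative of Gata6 chosen after its values were seen, was also higher (log2FC 1.24 ± 0.10). Hnf4a, the nuclear receptor of hepatic and gut epithelium, reached 141 ± 17.2 TPM, a scale per transcript length, in T12-LOH and 109 ± 16.5 TPM in T6-LOH (SD, n = 3 each). Its libraries overlapped, its log2FC was 0.24, and the call was lost without the KO B4 library of T12-LOH (log2FC 0.20, adjusted p = 0.067) or of T6-LOH (log2FC 0.19, adjusted p = 0.076). On the TPM scale, Gata6 stood at 8.67 ± 0.755 in T12-LOH and 0.205 ± 0.143 in T6-LOH, well below Hnf4a and Foxa2 in both lines.

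Cldn18, a tight junction claudin of gastric epithelium, had 4.17, 3.49 and 3.71 CPM in T12-LOH, against 342, 325 and 313 CPM in T6-LOH. The log2FC of -6.43 ± 0.08 (adjusted p = 3.4e-08) separated the lines without overlap, and T69A had 689 and 805 CPM. Foxq1, a forkhead factor of gut mucous cells, was lower (log2FC -1.59, but -0.87 against T6-LOH with PSC5), and Ceacam1, a cell adhesion molecule with a near-identical copy in the mouse genome, was lower (log2FC -1.34). Anxa10, an annexin of gastric-type tumour cells, went the other way (log2FC 1.22). Krt20, a keratin of differentiated gut epithelium, did not pass the test (log2FC 0.09, adjusted p = 0.32).

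Squamous genes were split as well, as were the genes as a whole. Of 25 tested members of the basal-like and squamous programme, 8 were higher (32%) and 10 lower in T12-LOH (40%). The shares of all genes were 32.0% and 31.6%. At 2-fold or more 5 were higher (20%) and 6 lower (24%), against 10.1% and 8.47% of all genes. Trp63 and Krt17, which define that subtype, were below the filter on low counts, with at most 0.169 CPM in any T12-LOH and 0.0692 CPM in any T6-LOH library. Krt5, the basal keratin, was at 0.295 to 0.409 CPM in T12-LOH and 0.555 to 0.864 CPM in T6-LOH, and did not pass the test (log2FC -1.02 ± 0.39, adjusted p = 0.053). It passed with no replicate block (adjusted p = 0.026), with protein-coding genes only (0.044) and against T6-LOH with PSC5 (log2FC -1.03, adjusted p = 0.046). All 3 genes thus stayed below 1 CPM in both lines.

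Other members of the squamous list did differ. Ly6d, a surface protein of squamous epithelium, had 4.42, 5.92 and 7.21 CPM in T12-LOH, against 65.5, 64.9 and 63.1 CPM in T6-LOH (log2FC -3.48 ± 0.14, adjusted p = 2.3e-06). Fat2, a large cadherin, had 3.08 to 3.28 CPM in T12-LOH and 25.2 to 32.5 CPM in T6-LOH (log2FC -3.13). Fam83a, a signalling scaffold linked to EGFR, had 3 counts over all T12-LOH libraries and 282 over all T6-LOH libraries, 85.6-fold lower with a 95% counting interval of 29.0 to 418. In the opposite direction, Tns4, a tensin of migrating epithelium, was higher in T12-LOH (log2FC 1.10), as was Scel, sciellin of the cornified envelope (log2FC 1.43).

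**Figure D2:**
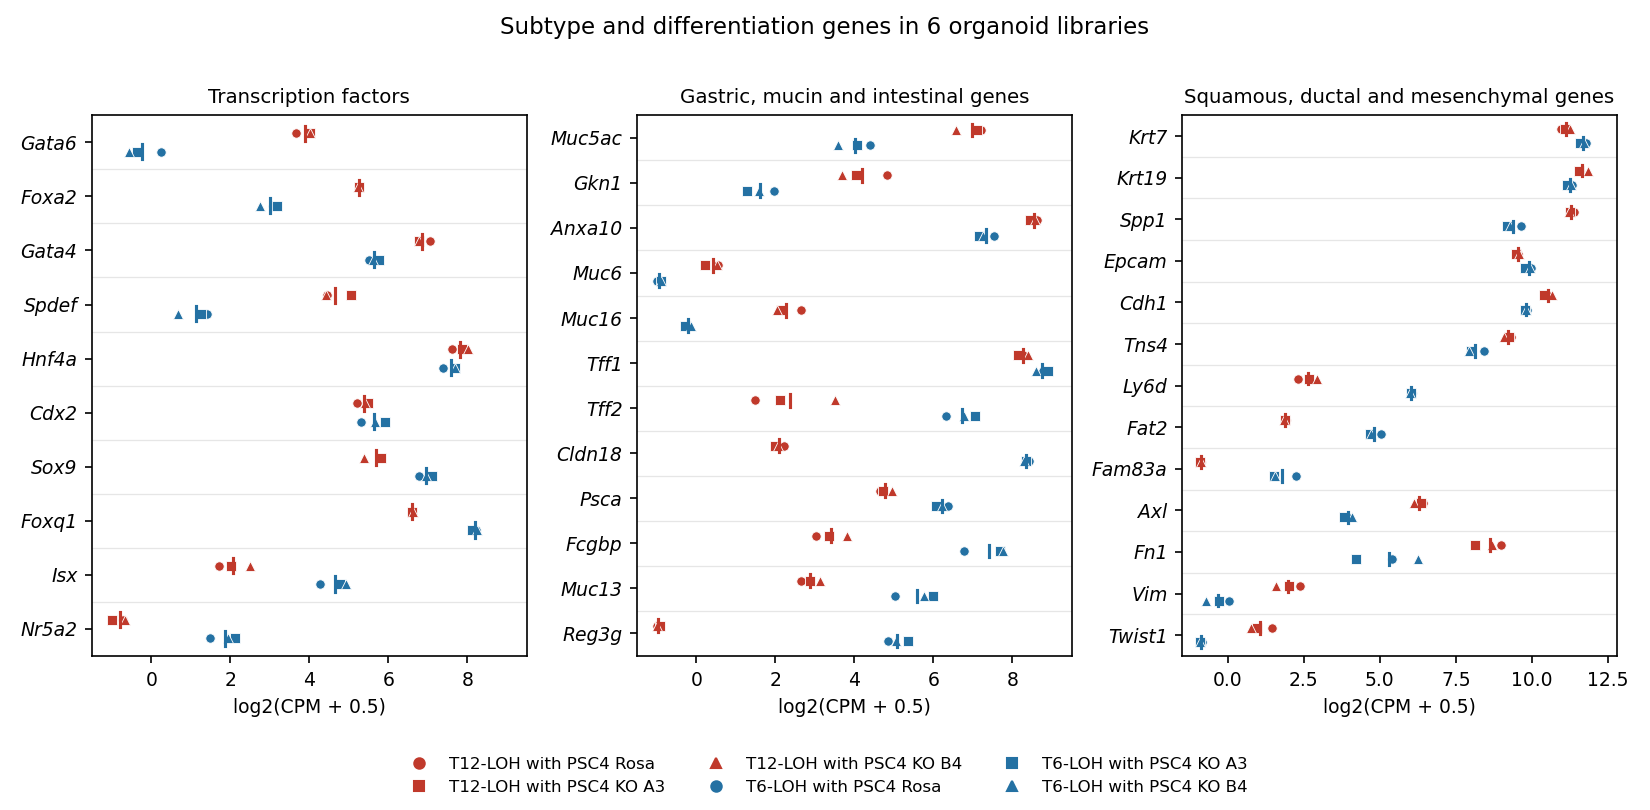
Levels of transcription factors, gastric and intestinal genes, and squamous, ductal and mesenchymal genes, as log2(CPM + 0.5) in each library, with T12-LOH in red above T6-LOH in blue; the marker shape gives the PSC line and the vertical tick the group mean. Gata6, Foxa2 and Muc5ac lie to the right in T12-LOH, Cldn18, Reg3g and Fam83a to the left.

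Gastric and intestinal genes gave different pictures. Of 15 tested gastric genes, 7 were higher and 6 lower in T12-LOH, with 5 and 3 at 2-fold or more and a median of 0.58. Of 20 tested intestinal genes, 2 were higher and 15 lower, with 1 and 10 at 2-fold or more and a median of -1.70. Among all tested genes 32.0% were higher and 31.6% lower, with 10.1% and 8.47% at 2-fold or more. Muc5ac, the gel-forming mucin of the stomach surface, had 147, 138 and 95.3 CPM in T12-LOH and 20.6, 16.2 and 11.5 CPM in T6-LOH (log2FC 2.98 ± 0.08, adjusted p = 3.5e-07). Gkn1, the gastric surface protein gastrokine, was higher (log2FC 2.81 ± 0.16). Muc6, the mucin of gastric glands, had 70 counts over the T12-LOH and 2 over the T6-LOH libraries, 38.4-fold higher with a 95% counting interval of 10.2 to 323, and stayed under 1 CPM in all 6 libraries.

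Other gastric genes were lower in T12-LOH. Tff2, the trefoil peptide that accompanies Muc6, had 2.32, 3.81 and 10.9 CPM in T12-LOH, against 78.8, 133 and 108 CPM in T6-LOH (log2FC -4.38 ± 0.50, adjusted p = 0.0058). The spread in T12-LOH was wide, and without the Rosa library of either line the adjusted p was 0.13, while without the KO B4 library of either line the log2FC was -5.11 or -5.12. It was -2.94 against T6-LOH with PSC5. Psca, a surface antigen of gastric and tumour epithelium, was lower (log2FC -1.46). Tff1, the trefoil peptide of surface mucous cells, was lower (log2FC -0.50, adjusted p = 0.0047), a call lost without the Rosa library of T12-LOH (adjusted p = 0.21) or of T6-LOH (0.18), in the fit of all 11 organoid libraries (0.12) and against T6-LOH with PSC5 (0.076).

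The intestinal side carried some of the largest differences. Reg3g, an antimicrobial lectin of the gut whose paralogue Reg3b shares sequence with it, had 1 count over the 3 T12-LOH libraries and 3058 over the 3 T6-LOH libraries. That is 2786-fold lower in T12-LOH, with a 95% counting interval of 499.7 to 110076 that covers counting error only. T6-LOH libraries held 28.3, 40.1 and 32.6 CPM of it. Fcgbp, a mucus protein of goblet cells, had 7.66, 9.73 and 13.6 CPM in T12-LOH and 108, 206 and 215 CPM in T6-LOH (log2FC -4.08 ± 0.12, adjusted p = 7.3e-07). Isx, an intestine-specific homeobox factor, had 2.78 to 5.14 CPM in T12-LOH and 18.9 to 29.9 CPM in T6-LOH (log2FC -2.74). All 3 genes separated the lines without overlap.

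Spdef was 1 of the 2 intestinal genes that were higher in T12-LOH, and the only one at 2-fold or more. This ETS factor of goblet and mucous cell maturation had 21.3, 33.0 and 20.9 CPM in T12-LOH, against 2.18, 1.91 and 1.11 CPM in T6-LOH (log2FC 3.84 ± 0.19, adjusted p = 5.7e-06). Cdx2, the master factor of intestinal identity, had 36.8 to 44.6 CPM in T12-LOH and 38.9 to 60.3 CPM in T6-LOH. Its libraries overlapped (log2FC -0.26, adjusted p = 0.022), and that call was lost without the KO A3 or KO B4 library of either line (adjusted p = 0.089 to 0.16) and against T6-LOH with PSC5 (log2FC -0.09, adjusted p = 0.75). Tff3, the intestinal trefoil peptide, had 3.78 to 5.13 CPM in T12-LOH and 7.15, 30.8 and 33.0 CPM in T6-LOH. It did not pass the test (log2FC -2.23, adjusted p = 0.080), with the T6-LOH library grown with Rosa cells near the T12-LOH range; without that library its log2FC was -3.03 (adjusted p = 7.0e-09). It also passed with DESeq2 (adjusted p = 0.0083), with no replicate block (0.014) and against T6-LOH with PSC5 (log2FC -1.37, adjusted p = 0.011).

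All 11 tested mucins passed the test, 4 higher and 7 lower in T12-LOH, where 63.6% of all tested genes passed. Muc13, a transmembrane mucin of the intestine, had 5.74 to 8.26 CPM in T12-LOH and 31.9 to 63.3 CPM in T6-LOH (log2FC -2.81). Muc16, the mucin that carries the CA125 antigen, had 3.58 to 5.74 CPM in T12-LOH and 0.312 to 0.415 CPM in T6-LOH (log2FC 3.59). Muc4, a membrane mucin that binds ERBB2, was lower (log2FC -0.76). Muc1, the pan-epithelial membrane mucin, was the most abundant of these per transcript length, at 545 ± 57.5 TPM in T12-LOH and 628 ± 30.6 TPM in T6-LOH. Its difference was small (log2FC -0.27, adjusted p = 0.032), and it missed the threshold without the Rosa or KO A3 library of either line (adjusted p = 0.052 to 0.072).

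Of 20 tested ductal genes, 7 were higher and 6 lower in T12-LOH, with 2 and 1 at 2-fold or more. Over all genes the shares were 32.0% and 31.6%, with 10.1% and 8.47% at 2-fold or more. Spp1, the secreted phosphoprotein osteopontin, had 2694, 2429.6 and 2414 CPM in T12-LOH, against 803, 584 and 622 CPM in T6-LOH (log2FC 1.92 ± 0.07, adjusted p = 1.1e-06). The matched PSC libraries held 4673 to 9547 CPM of it. Sox9, the ductal and progenitor factor, had 55.7, 56.3 and 41.6 CPM in T12-LOH and 109.5, 138 and 124 CPM in T6-LOH (log2FC -1.28 ± 0.11). Of the keratins of simple ductal epithelium, Krt7 was lower (log2FC -0.58) and Krt19 higher (log2FC 0.39). Aqp5, a water channel, was higher (log2FC 0.83), Cdh1, the epithelial cadherin, higher (log2FC 0.71), and Onecut2, a ductal transcription factor, lower (log2FC -0.67). Aqp5 had a log2FC of 0.28 against T6-LOH with PSC5 (adjusted p = 0.37).

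Of the acinar and endocrine genes only 5 passed the filter on low counts. Of these 5, 1 was higher and 3 lower in T12-LOH, against 32.0% and 31.6% of all genes. Nr5a2, a nuclear receptor of acinar cells, had at most 0.126 CPM in T12-LOH and 2.33 to 3.89 CPM in T6-LOH (log2FC -5.35 ± 0.58, adjusted p = 0.00017). Without the KO A3 library of either line its log2FC was -4.54. Bhlha15, the acinar secretory factor MIST1, was lower (log2FC -1.38), at no more than 2.08 CPM in any of the 6 libraries. Ptf1a, Cpa1, Ins1, Ins2 and Gcg, which define acinar and endocrine cells, had 0 counts in all 6 libraries.

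Most tested mesenchymal genes were higher in T12-LOH than in T6-LOH. Of 20 listed EMT transcription factors and mesenchymal genes, 11 passed the filter on low counts and were tested. Of these 11, 7 were higher in T12-LOH, 6 of them at 2-fold or more. The other 4 did not pass the test, and the median log2FC was 1.85. A gene can pass the filter through 1 line alone, as Twist1 did through T12-LOH. The counts and the median thus depend in part on the filter. Of all genes, 32.0% were higher, 10.1% at 2-fold or more. T69A over T6-LOH likewise gave 6 higher and 1 lower member, all at 2-fold. T12-LOH over T69A gave 5 higher and 3 lower, with 4 and 2 at 2-fold. Axl, a receptor tyrosine kinase of mesenchymal tumour cells, had 86.1, 81.1 and 68.5 CPM in T12-LOH and 14.8, 13.6 and 16.6 CPM in T6-LOH (log2FC 2.39 ± 0.11, adjusted p = 5.1e-06). T69A stood between, at 51.4 and 36.4 CPM. Itga5, the fibronectin receptor subunit, had 23.7 to 32.7 CPM in T12-LOH and 5.20 to 10.0 CPM in T6-LOH (log2FC 1.85). Its log2FC against T6-LOH with PSC5 was 1.54 and missed the threshold (adjusted p = 0.069). Fn1, fibronectin itself and chosen after its values were seen, had 510.1, 282 and 417 CPM in T12-LOH and 41.8, 18.0 and 75.9 CPM in T6-LOH (log2FC 3.32 ± 0.41, adjusted p = 0.0082). Without the Rosa library of either line it missed the threshold (adjusted p = 0.16).

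The defining mesenchymal genes stayed low in absolute terms. Vim, the mesenchymal intermediate filament protein vimentin, had 4.63, 3.56 and 2.53 CPM in T12-LOH and 0.530, 0.312 and 0.104 CPM in T6-LOH (log2FC 3.55 ± 0.33). Twist1, a bHLH factor that drives EMT, had 1.18 to 2.21 CPM in T12-LOH and at most 0.0589 CPM in T6-LOH (log2FC 5.10 ± 0.44). Zeb1, another EMT factor, was below the filter, with at most 0.379 CPM in T12-LOH and 0.207 CPM in T6-LOH. The matched PSC libraries held 684 to 1545 CPM of Vim, 52.1 to 97.3 CPM of Twist1 and 1899 to 6950.2 CPM of Fn1. Their part in these differences was not tested, beside a PSC marker sum that was 1.63 CPM higher in T12-LOH on average. That sum was higher in T12-LOH in all 3 pairs grown with the same PSC line, and the 2-sided exact permutation test within pairs gave p = 0.25, the smallest value it allows. The difference was 0.120 CPM without the Rosa library of T12-LOH and 2.65 CPM without that of T6-LOH. S100a4, a calcium-binding protein of motile cells, was higher (log2FC 0.56), with a log2FC of 0.32 against T6-LOH with PSC5 (adjusted p = 0.19).

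Of 28 tested genes in the list of epithelial adhesion and polarity, which does not hold Cldn18 or Cldn8, 12 were higher and 6 lower in T12-LOH. At 2-fold or more, 1 was higher and 2 lower, against 10.1% and 8.47% of all genes. With T6-LOH grown with PSC5, 6 were higher and 6 lower. Cdh1 was the higher gene with the smallest p, and Cldn1, a claudin chosen after its values were seen, was the one at 2-fold. Cldn1 was at 0.724 to 1.11 CPM in T12-LOH and 0.147 to 0.278 CPM in T6-LOH (log2FC 2.21), and missed the threshold against T6-LOH with PSC5 (log2FC 1.05, adjusted p = 0.22). Both lower genes at 2-fold were claudins too. Cldn3, a sealing claudin, had 122 to 142 CPM in T12-LOH and 333 to 378 CPM in T6-LOH (log2FC -1.39), and Cldn2, a pore-forming claudin, was lower (log2FC -1.47). Grhl2, a factor that maintains epithelial junctions, was lower (log2FC -0.63), as were Tjp3, a tight junction scaffold (log2FC -0.66), and Epcam, an epithelial adhesion molecule (log2FC -0.37).

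EGFR-family genes were compared next, since the cultures tested Egfr in the PSCs. Egfr itself had 84.5, 73.9 and 87.7 CPM in T12-LOH and 93.2, 75.6 and 87.2 CPM in T6-LOH, which overlap (log2FC -0.06 ± 0.06, adjusted p = 0.44). The matched PSC libraries, wild-type and knockout, held 58.4 to 290.3 CPM of Egfr. Of 17 tested receptors and ligands, 8 were higher and 4 lower in T12-LOH, against 32.0% and 31.6% of all genes. The 4 that reached 2-fold were all higher, against 10.1% of all genes. The neuregulins Nrg1 and Nrg4, ligands of the ERBB receptor family, were among these. Nrg1 had 8.91, 10.8 and 9.19 CPM in T12-LOH and 0 counts in every T6-LOH library, so it was at least 297-fold higher, with a floor of 3 counts over the group. It was also at 0 in T6-LOH with PSC5. The matched PSC libraries held 33.4 to 74.3 CPM of Nrg1, and Nrg4, chosen after its values were seen, was higher in T12-LOH (log2FC 4.35 ± 0.46) and had at most 0.164 CPM in those libraries. Without the KO A3 library of either line the log2FC of Nrg4 was 5.05 or 5.04.

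Among the EGFR ligands, Ereg, epiregulin, had 116, 144 and 148 CPM in T12-LOH and 57.6, 65.3 and 64.1 CPM in T6-LOH (log2FC 1.12 ± 0.06, adjusted p = 6.3e-06). Areg, amphiregulin, had 160.3, 189.5 and 201 CPM in T12-LOH and 112, 99.1 and 119.9 CPM in T6-LOH (log2FC 0.74). On the TPM scale Areg was the more abundant of the pair, at 281 ± 27.8 in T12-LOH and 162 ± 15.8 in T6-LOH, with Ereg at 57.6 ± 5.98 in T12-LOH and 25.4 ± 1.71 in T6-LOH. Rhbdf2, which brings the sheddase ADAM17 to the ligands, was higher (log2FC 0.70). The receptor Erbb2 was lower, at 91.9 to 96.0 CPM in T12-LOH and 130.3 to 162 CPM in T6-LOH (log2FC -0.67). Erbb3 overlapped between the lines (log2FC -0.27, adjusted p = 0.056), and without the Rosa library of either line its log2FC was -0.41 or -0.42 and passed. It also passed with no filter on low counts, with DESeq2, with no replicate block, with all 11 organoid libraries and with protein-coding genes only (adjusted p = 0.013 to 0.049). Errfi1, a feedback inhibitor of EGFR, was higher (log2FC 0.96).

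Of 29 tested RAS and ERK output genes, 15 were higher and 5 lower in T12-LOH, with 3 and 1 at 2-fold or more, against 10.1% and 8.47% of all genes. Feedback genes of the ERK pathway were mixed, with Spry4 higher (log2FC 0.95), Dusp6 higher (log2FC 0.36) and Spry2 lower (log2FC -0.66). Il1rl1, the IL-33 receptor and an ERK-induced gene, had 8.56 to 12.5 CPM in T12-LOH and 0.555 to 1.06 CPM in T6-LOH (log2FC 3.53). Epha2, an ephrin receptor, was higher (log2FC 0.69), as was Ier3, an early response gene (log2FC 0.84).

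**Figure D3:**
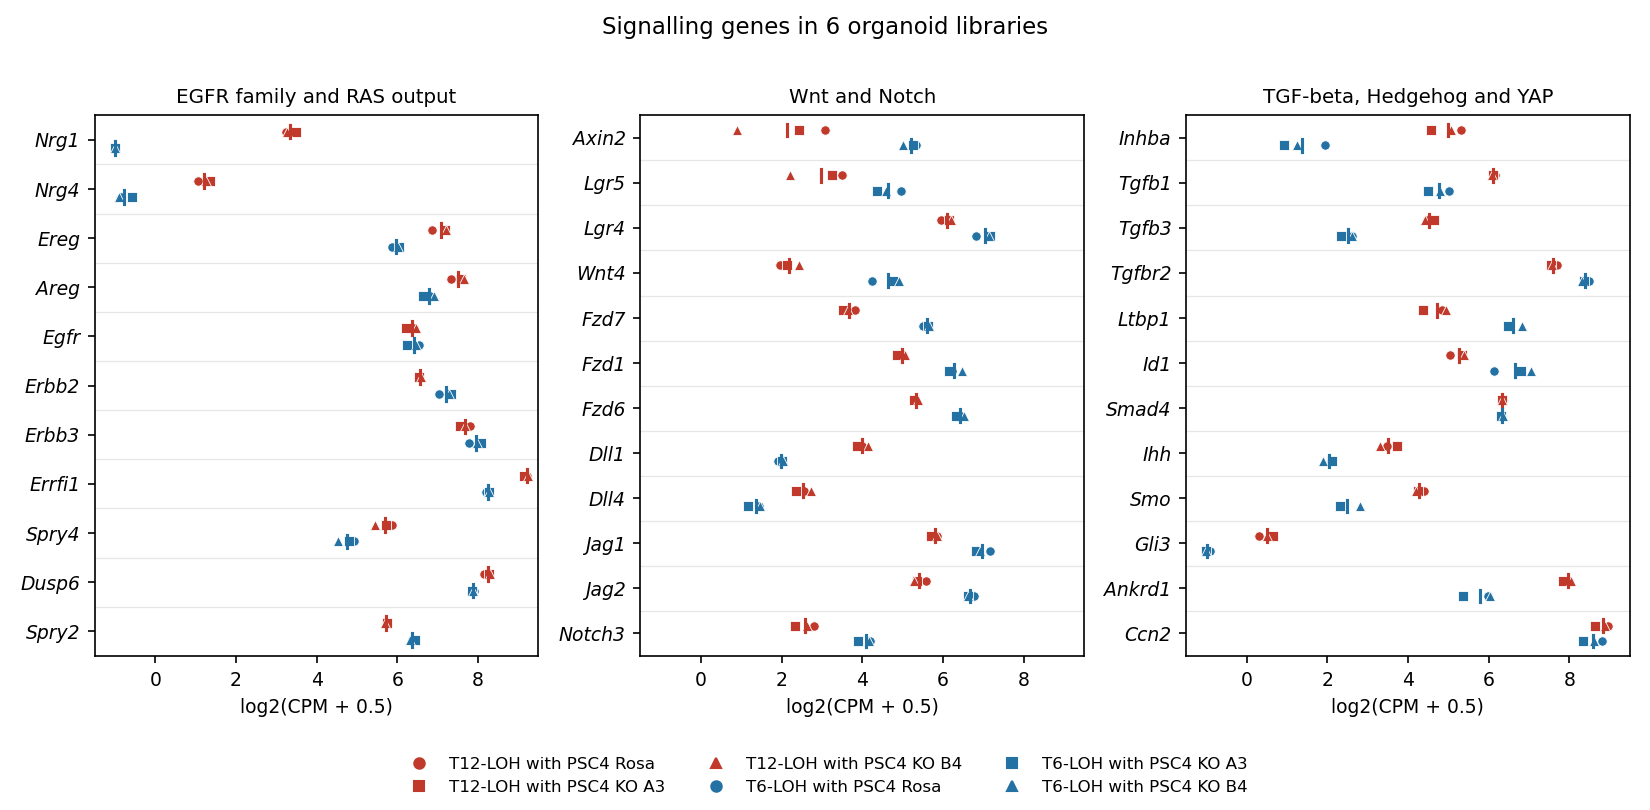
Levels of EGFR-family, RAS, Wnt, Notch, TGF-beta, Hedgehog and YAP genes as log2(CPM + 0.5) in each library, drawn as T12-LOH in red above T6-LOH in blue, with marker shapes for the PSC lines and ticks for the group means. Egfr and Smad4 coincide, Nrg1, Ereg and Inhba lie higher in T12-LOH, and Wnt4, Fzd7 and Axin2 lie lower.

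More Wnt genes were lower than higher in T12-LOH. Of 25 tested Wnt targets and receptors, 9 were higher and 14 lower, with 6 and 8 at 2-fold or more and a median of -0.56. Of all genes, 32.0% were higher and 31.6% lower, with 10.1% and 8.47% at 2-fold or more. The members named here were all lower, and none of the 9 higher ones is named. T12-LOH over T69A gave 9 higher and 9 lower members, and T69A over T6-LOH gave 6 higher and 12 lower. Several Frizzled receptors, which bind Wnt ligands, were among the lower genes. Fzd7 had 13.6, 11.0 and 12.0 CPM in T12-LOH and 45.0, 48.8 and 49.97 CPM in T6-LOH (log2FC -1.98 ± 0.10, adjusted p = 3.7e-06). Fzd1 (log2FC -1.31) and Fzd6 (log2FC -1.12) were lower, and Lgr4, a receptor for the Wnt enhancers R-spondins, was lower (log2FC -0.94). The ligand Wnt4 had 3.42 to 4.93 CPM in T12-LOH and 18.5 to 29.7 CPM in T6-LOH (log2FC -2.61). Axin2, the feedback target used as a reporter of beta-catenin signalling, had 7.95, 4.88 and 1.35 CPM in T12-LOH, against 39.8, 37.6 and 32.0 CPM in T6-LOH (log2FC -3.05 ± 0.45, adjusted p = 0.0086). The libraries did not overlap, yet the T12-LOH values differed several fold among themselves. The adjusted p was 0.060 with no filter on low counts and 0.057 to 0.084 without the Rosa or KO A3 library of either line, and the log2FC was -1.93 against T6-LOH with PSC5. Lgr5, the stem cell receptor and Wnt target, was at 10.8, 8.97 and 4.09 CPM in T12-LOH and 30.9, 20.1 and 23.4 CPM in T6-LOH (log2FC -1.68, adjusted p = 0.0046). It missed the threshold without the Rosa library of T12-LOH (adjusted p = 0.18) or of T6-LOH (0.14), and with no filter on low counts (0.051).

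Notch ligands differed by family. Of 11 tested Notch genes, 3 were higher and 6 lower in T12-LOH, against 32.0% and 31.6% of all genes. The Jagged ligands were lower, Jag2 at 38.7 to 47.8 CPM in T12-LOH and 98.0 to 108 CPM in T6-LOH (log2FC -1.26), and Jag1 with a log2FC of -1.17. The Delta ligands were higher, Dll1 at 14.0 to 17.2 CPM in T12-LOH and 3.24 to 3.63 CPM in T6-LOH (log2FC 2.17), and Dll4 with a log2FC of 1.37. The receptor Notch3 was lower (log2FC -1.58). Hes1, the common Notch target, was lower (log2FC -0.28), but had a log2FC of 0.13 against T6-LOH with PSC5 (adjusted p = 0.13).

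The ligand genes Inhba, Tgfb1 and Tgfb3 were higher in T12-LOH, and the receptor gene Tgfbr2 was lower. Of 23 tested BMP and TGF-beta genes, 7 were higher and 11 lower in T12-LOH, with 4 and 6 at 2-fold or more. Over all genes the shares were 32.0% and 31.6%, with 10.1% and 8.47% at 2-fold or more. Inhba, the activin A subunit, had 39.4, 23.5 and 33.2 CPM in T12-LOH and 3.33, 1.39 and 1.87 CPM in T6-LOH (log2FC 3.89 ± 0.14, adjusted p = 1.0e-06). Tgfb3 had 21.0 to 24.5 CPM in T12-LOH and 4.58 to 5.65 CPM in T6-LOH (log2FC 2.08), and Tgfb1 was higher (log2FC 1.37). The receptor Tgfbr2 was lower (log2FC -0.79), as was Ltbp1, which stores latent TGF-beta in matrix (log2FC -1.90). Id1, a target of BMP signals, had 32.2 to 41.5 CPM in T12-LOH and 70.2 to 133 CPM in T6-LOH (log2FC -1.42). Smad4, the shared signal transducer that pancreatic tumours often lose, had 80.0 to 81.7 CPM in T12-LOH and 79.0 to 81.7 CPM in T6-LOH (log2FC 0.00, adjusted p = 0.94). The activin receptor Acvr2a was lower (log2FC -1.22).

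Of 6 tested Hedgehog genes, out of 11 listed, 4 were higher in T12-LOH, against 32.0% of all genes, and 2 did not pass the test. With T6-LOH grown with PSC5, 4 were higher and 1 lower. The ligand Ihh had 9.40 to 12.7 CPM in T12-LOH and 3.22 to 3.85 CPM in T6-LOH (log2FC 1.59), the transducer Smo was higher (log2FC 1.89) and so was the inhibitor Sufu (log2FC 0.73). Gli3, a transcription factor of the pathway, had 77 counts over the T12-LOH and 1 over the T6-LOH libraries, 84.5-fold higher with a 95% counting interval of 14.7 to 3381. Against T6-LOH with PSC5, the log2FC of Ihh was 2.79, that of Smo 2.61 and that of Gli3 3.68, where it was 5.91 against T6-LOH with PSC4.

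Of 24 tested YAP and TEAD targets, 13 were higher and 6 lower in T12-LOH, with 7 and 3 at 2-fold or more. Over all genes the shares were 32.0% and 31.6%, with 10.1% and 8.47% at 2-fold or more. Ankrd1, a standard YAP reporter gene, had 256, 229 and 263 CPM in T12-LOH and 62.7, 41.0 and 65.1 CPM in T6-LOH (log2FC 2.17 ± 0.10), with a log2FC of 1.19 against T6-LOH with PSC5. Ccn2, another reporter, overlapped between the lines (log2FC 0.23, adjusted p = 0.0045), a call lost without the KO A3 or KO B4 library of T6-LOH (adjusted p = 0.066 and 0.052) and against T6-LOH with PSC5 (log2FC 0.16, adjusted p = 0.48). Nt5e, the ectoenzyme CD73, was higher (log2FC 4.22), with a log2FC of 2.45 against T6-LOH with PSC5 (adjusted p = 0.082). Foxf2, a forkhead factor, was lower (log2FC -1.71), as was Asap1, an ARF regulator (log2FC -1.40).

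NF-kappaB targets and chemokines were higher in T12-LOH with few exceptions. Of 27 tested members, 25 were higher and 2 lower in T12-LOH, against 32.0% and 31.6% of all genes, with 20 higher and 1 lower at 2-fold or more and a median of 1.71. NF-kappaB is the transcription factor family that TNF and IL-1 activate, and its targets include the cytokines that recruit neutrophils. With T6-LOH grown with PSC5 in place of T6-LOH grown with PSC4, 13 were higher and 1 lower at 2-fold or more, against 8.91% and 7.9% of all genes. T12-LOH over T69A gave 12 higher and 1 lower at 2-fold, against 10.0% and 6.86% of all genes. For T69A over T6-LOH, 9 were higher and 2 lower at 2-fold, against 6.3% and 7.56% of all genes. Several of these comparisons share libraries.

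The cytokine Tnf had 84.1, 83.4 and 106 CPM in T12-LOH, against 6.48, 5.34 and 10.3 CPM in T6-LOH (log2FC 3.66 ± 0.12, adjusted p = 9.6e-07). T6-LOH with PSC5 had 10.8 to 17.8 CPM and T69A 36.9 and 33.7 CPM of Tnf. Il1a, an alarmin cytokine, had 418, 311 and 437 CPM in T12-LOH and 98.8, 54.7 and 63.3 CPM in T6-LOH (log2FC 2.45). Csf2, which encodes GM-CSF, had 38.9, 43.8 and 53.8 CPM in T12-LOH and 2.36, 1.84 and 5.15 CPM in T6-LOH (log2FC 3.93). Csf3, which encodes G-CSF, was higher (log2FC 3.62); Il1a, Csf2 and Csf3 were chosen after their values were seen. None of these cytokines overlapped between the lines, and Tnf had at most 0.925 CPM in the matched PSC libraries. Tnfaip3, the feedback inhibitor A20, had 189 to 263 CPM in T12-LOH and 46.1 to 63.2 CPM in T6-LOH (log2FC 2.08).

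Ccl20, the ligand of CCR6, had 81.9, 87.3 and 86.7 CPM in T12-LOH and 5.12, 6.45 and 6.85 CPM in T6-LOH (log2FC 3.80 ± 0.09, adjusted p = 3.2e-07). Cxcl10, an interferon-induced chemokine of T cells, had 23.1, 11.0 and 8.60 CPM in T12-LOH and 1.06, 0.590 and 0.311 CPM in T6-LOH (log2FC 4.44 ± 0.16), with a log2FC of 2.53 against T6-LOH with PSC5. Il18, a cytokine of the IL-1 family, was the smaller of the 2 lower members (log2FC -0.90). It was chosen after its values were seen, and against T6-LOH with PSC5 its log2FC was -0.23 (adjusted p = 0.43).

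The neutrophil chemokines Cxcl1, Cxcl2 and Cxcl3, neighbouring genes on chromosome 5 that share much of their coding sequence, did not move together. Their 250 bases before the start site, from RefSeq on GRCm38.p6, are shown because NF-kappaB sites lie there in many chemokine genes. Capitals mark GGGAATTTCCC, the longest run of letters that the 3 windows share, which has the form of an NF-kappaB motif. The windows are chr5:90890995-90891244 for Cxcl1, chr5:90903649-90903898 for Cxcl2 and chr5:90785851-90786100 for Cxcl3, each on the plus strand.
Cxcl1: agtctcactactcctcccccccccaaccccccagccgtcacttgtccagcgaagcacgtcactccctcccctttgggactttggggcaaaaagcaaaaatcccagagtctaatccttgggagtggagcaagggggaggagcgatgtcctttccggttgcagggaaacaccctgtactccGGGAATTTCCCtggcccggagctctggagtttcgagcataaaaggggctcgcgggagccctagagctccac
Cxcl2: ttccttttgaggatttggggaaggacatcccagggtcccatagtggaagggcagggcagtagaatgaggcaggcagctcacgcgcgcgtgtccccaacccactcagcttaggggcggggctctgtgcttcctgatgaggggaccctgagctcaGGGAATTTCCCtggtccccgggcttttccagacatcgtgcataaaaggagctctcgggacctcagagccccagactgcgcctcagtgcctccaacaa
Cxcl3: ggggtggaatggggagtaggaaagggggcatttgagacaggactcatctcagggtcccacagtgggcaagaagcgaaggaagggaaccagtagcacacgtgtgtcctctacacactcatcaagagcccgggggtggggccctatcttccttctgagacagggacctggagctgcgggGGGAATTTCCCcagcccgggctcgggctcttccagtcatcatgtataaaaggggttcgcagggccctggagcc
The run starts 71 bases before the start site in Cxcl1, 97 in Cxcl2 and 73 in Cxcl3. Searched on both strands, it was in 14 of 32851 promoter windows of the same length (0.0426%), and in 3 of the 20 tested NF-kappaB and chemokine genes that had a window. The run was chosen for being shared, and a match of letters shows no binding.

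Cxcl2 had 35.8, 36.0 and 41.8 CPM in T12-LOH, against 1.74, 2.05 and 3.29 CPM in T6-LOH (log2FC 4.03 ± 0.14, adjusted p = 9.7e-07). Cxcl1 had 0.535, 0.220 and 0.295 CPM in T12-LOH, against 18.2, 21.3 and 32.4 CPM in T6-LOH (log2FC -6.04 ± 0.26, adjusted p = 3.8e-06). The lines thus differed in opposite directions at neighbouring genes, without overlap at either. Cxcl3 had 31.5 to 34.3 CPM in T12-LOH and 9.01 to 14.1 CPM in T6-LOH (log2FC 1.46), and Cxcl5 was higher (log2FC 1.21); Cxcl1, Cxcl3 and Cxcl5 were chosen after their values were seen. Cxcl1 stayed at 26.3 to 42.7 CPM in T6-LOH with PSC5, and was at 1.06 and 0.248 CPM in T69A. The matched PSC libraries held 137 to 1321 CPM of Cxcl1. Without the Rosa library of either line the log2FC of Cxcl1 was -6.66 or -6.67. Against T6-LOH with PSC5, the log2FC of Cxcl2 was 3.34 and that of Cxcl3 0.80. Because these paralogues are near-identical in places, the split of shared reads between them depends on the authors' quantification.

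**Figure D4:**
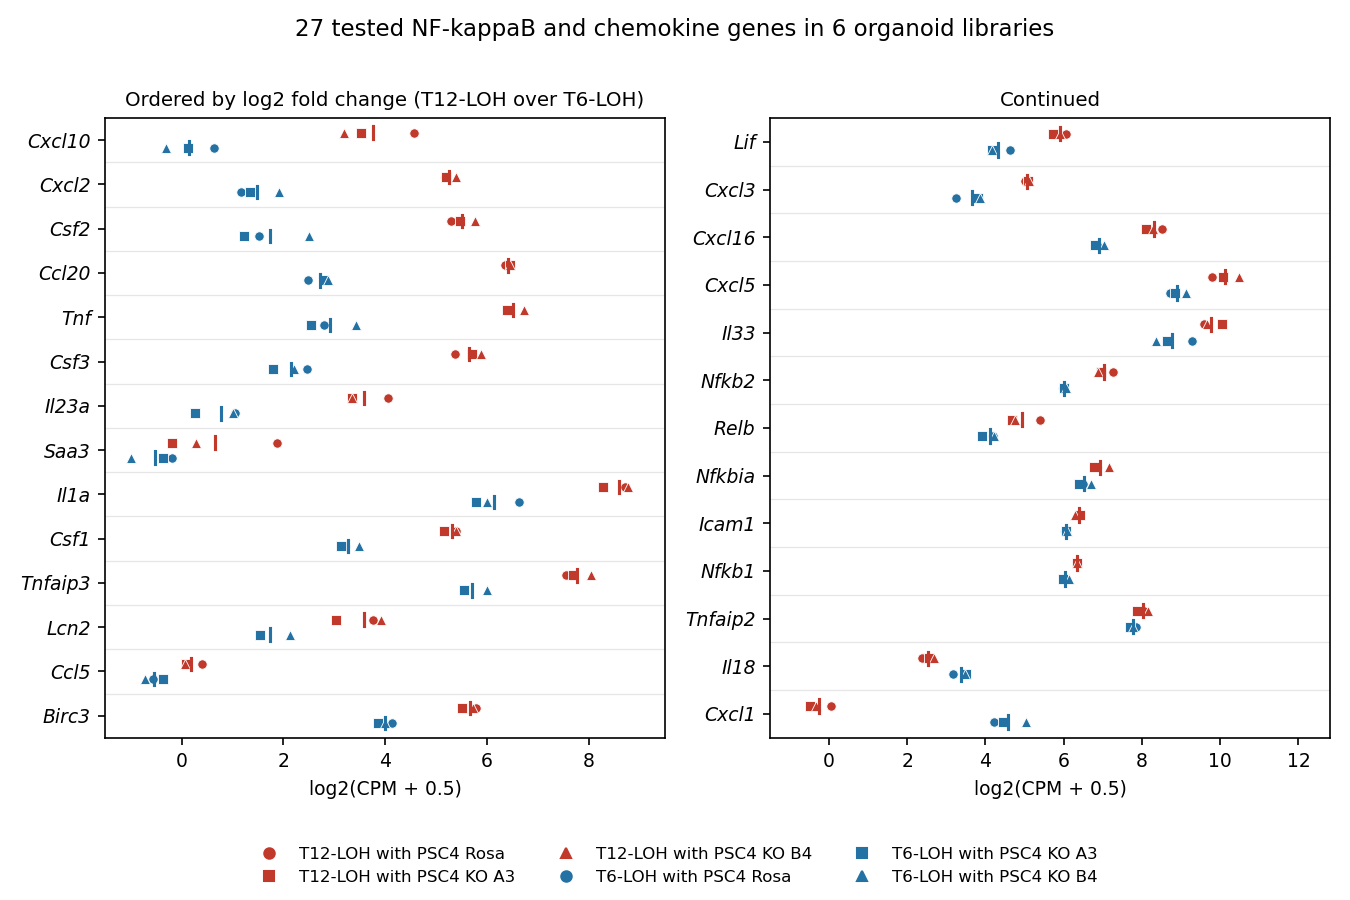
Levels of the 27 tested NF-kappaB and chemokine genes as log2(CPM + 0.5) in each library, ordered by log2 fold change, T12-LOH in red above T6-LOH in blue, with marker shapes for the PSC lines and ticks for the group means. Only Il18 and Cxcl1, at the foot of the right panel, lie lower in T12-LOH.

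Interferon-stimulated genes gave no stable direction. Of 34 tested, 8 were higher and 5 lower in T12-LOH, with 6 and 3 at 2-fold or more. Over all genes the shares were 32.0% and 31.6%, with 10.1% and 8.47% at 2-fold or more. Without the Rosa library of either line, 12 were higher at 2-fold. Against T6-LOH with PSC5, 9 were called at 2-fold and each was lower. Isg20, an interferon-induced exonuclease, had 32.6 to 39.4 CPM in T12-LOH and 15.1 to 20.1 CPM in T6-LOH with PSC4 (log2FC 1.06), but 16.5 to 37.6 CPM in T6-LOH with PSC5 (log2FC 0.35, adjusted p = 0.33). Irf1, a transcription factor of the response, was lower (log2FC -0.49). Mx1, an antiviral GTPase, had 9.99 to 13.8 CPM in T12-LOH and 1.04 to 2.62 CPM in T6-LOH with PSC4 (log2FC 2.91), but 2.07 to 9.43 CPM in T6-LOH with PSC5 (log2FC 1.10, adjusted p = 0.11). Stat2, a transducer of interferon signals, had a log2FC of 0.81 against PSC4 cultures and -0.56 against PSC5 cultures of T6-LOH, and Ifit3 one of 2.83 and -1.56.

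Of 14 tested genes of MHC class I presentation, 8 were lower and 3 higher in T12-LOH, against 31.6% and 32.0% of all genes. At 2-fold or more 3 were lower and 1 higher, against 8.47% and 10.1% of all genes. The count of lower genes at 2-fold was not stable. It was 1 with DESeq2 or without the Rosa or KO A3 library of either line. Without the KO B4 library of either line it was 5, and against T6-LOH with PSC5 it was 7. B2m, the shared light chain, had 81.6 to 103 CPM in T12-LOH and 126 to 146 CPM in T6-LOH (log2FC -0.60), and H2-T23, a non-classical class I gene with close paralogues, was lower (log2FC -0.99). T6-LOH with PSC5 spread from 133 to 446 CPM of B2m. Tap2, a peptide transporter subunit, was lower (log2FC -1.12). Nlrc5, the transactivator of class I genes, was higher (log2FC 4.75) at levels under 2 CPM, with a log2FC of 1.07 against T6-LOH with PSC5 (adjusted p = 0.37). Cd274, the checkpoint ligand PD-L1, was higher (log2FC 0.94), with a log2FC of 0.15 against T6-LOH with PSC5 (adjusted p = 0.81).

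Of 24 tested p53 targets, 15 were higher (62.5%) and 5 lower in T12-LOH (20.8%), against 32.0% and 31.6% of all genes. At 2-fold or more 2 were higher (8.33%) and 1 lower (4.17%), below the 10.1% and 8.47% of all genes. Cdkn1a, the cell cycle inhibitor p21, had 241, 118 and 125 CPM in T12-LOH and 87.4, 64.5 and 60.9 CPM in T6-LOH (log2FC 1.13, adjusted p = 0.00018). Against T6-LOH with PSC5 its log2FC was 0.91 (adjusted p = 0.080). Mdm2, the p53 ubiquitin ligase, was higher (log2FC 0.71), as was Ccng1, cyclin G1 (log2FC 0.87). Tnfrsf10b, a TRAIL death receptor, was higher as well (log2FC 0.65). Gdf15, a stress-induced cytokine, had 13.1 to 22.5 CPM in T12-LOH and 0.864 to 1.14 CPM in T6-LOH (log2FC 3.96), whereas Ephx1, an epoxide hydrolase, was lower (log2FC -2.39). Trp53 itself was higher (log2FC 0.46), and Cdkn2a, which encodes p16 and p19ARF, was lower (log2FC -0.39). Both genes were present in all 6 libraries.

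Few proliferation genes differed by 2-fold or more. Of 41 tested cell cycle genes, 15 were higher (36.6%) and 13 lower in T12-LOH (31.7%), near the 32.0% and 31.6% of all genes. Only 1 each reached 2-fold (2.44%), against 10.1% and 8.47% of all genes, and the median was 0.02. Mki67, the proliferation marker, had 369 to 456 CPM in T12-LOH and 369 to 434 CPM in T6-LOH (log2FC 0.02, adjusted p = 0.75). Cdc25a, a phosphatase of the G1/S transition, was lower (log2FC -1.21) and Ccne2, cyclin E2, higher (log2FC 1.06). Cdk6, a G1 kinase, had 104 to 114 CPM in T12-LOH and 183 to 208 CPM in T6-LOH (log2FC -0.86), and Mcm3, a subunit of the replicative helicase, was lower too (log2FC -0.81). Of 30 tested driver genes, 10 were higher and 11 lower, with 2 and 1 at 2-fold or more. Lower genes included the tumour suppressor Rb1 (log2FC -0.88), the chromatin remodelling subunit Arid1b (log2FC -0.79) and the growth factor-induced transcription factor Myc (log2FC -0.67).

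Metabolic lists held genes of both directions. Over all genes, 32.0% were higher and 31.6% lower in T12-LOH, with 10.1% and 8.47% at 2-fold or more. Of 28 tested sterol and fatty acid genes, 6 were higher and 14 lower in T12-LOH, but 8 and 8 with T6-LOH grown with PSC5. Sqle, squalene epoxidase, had 208, 237 and 233 CPM in T12-LOH and 734, 752 and 754 CPM in T6-LOH (log2FC -1.73 ± 0.05, adjusted p = 6.3e-07). Acss2, which makes acetyl-CoA from acetate, was lower (log2FC -1.08). Of other enzymes of these routes, Nsdhl was lower (log2FC -0.59), whereas Sc5d (log2FC 0.61) and Acly, the ATP citrate lyase (log2FC 0.58), were higher. Of 29 tested glycolysis and hypoxia genes, 8 were higher and 13 lower. Ldha, lactate dehydrogenase, had 1139 to 1272 CPM in T12-LOH and 1750.5 to 1856 CPM in T6-LOH (log2FC -0.58), the glycolytic enzymes Aldoa (log2FC -0.69) and Pfkl (log2FC -0.55) were lower, Pdk1, which limits pyruvate entry to mitochondria, was lower (log2FC -1.30), and Car9, a hypoxia-induced carbonic anhydrase, was higher (log2FC 1.72). Of 26 tested xenobiotic and redox genes, 8 were higher and 13 lower, with 3 and 7 at 2-fold or more. That balance turned with T6-LOH grown with PSC5, where 10 were higher and 8 lower, with 5 and 4 at 2-fold or more. Gsta3, a glutathione transferase with close paralogues, had 5.78, 4.60 and 3.46 CPM in T12-LOH and 222, 203 and 178 CPM in T6-LOH (log2FC -5.45 ± 0.09, adjusted p = 1.3e-07). Gstm2, another glutathione transferase (log2FC -2.95), and Aldh1a1, a retinal dehydrogenase (log2FC -1.27), were lower, as was Slc7a11, the cystine transporter, with 54.0 to 67.3 CPM in T12-LOH and 108 to 131 CPM in T6-LOH. Cyp1b1, an AHR-induced oxidase, was lower (log2FC -4.29), also against T6-LOH with PSC5 (log2FC -3.30). Aldh1a3, another retinal dehydrogenase, was higher in T12-LOH, at 205 to 302 CPM against 24.2 to 53.1 CPM in T6-LOH (log2FC 2.67). Nqo1, a quinone reductase, was higher (log2FC 1.83, and 2.66 against T6-LOH with PSC5). Both were chosen after their values were seen.

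All 3 tested immune markers were lower in T12-LOH, and the summed level of the immune list was 11.0 to 18.3 CPM in T12-LOH and 17.7 to 24.9 CPM in T6-LOH. Most of that sum was Cd68, a lysosomal protein abundant in macrophages, with 10.4 to 17.0 CPM in T12-LOH and 12.9 to 19.0 CPM in T6-LOH. Its libraries overlapped (log2FC -0.29, adjusted p = 0.034), and the call was lost with DESeq2 (adjusted p = 0.15), with no replicate block (0.31) and without the KO A3 or KO B4 library of either line (0.081 to 0.21). Csf1r, a macrophage receptor, had 0.0630 to 0.143 CPM in T12-LOH and 3.43 to 4.68 CPM in T6-LOH (log2FC -5.37). Ptprc, the leukocyte marker CD45, was at 0.126 to 0.535 CPM in T12-LOH and 1.09 to 1.32 CPM in T6-LOH. Its log2FC was -1.77 (adjusted p = 0.0099), a call lost without the KO B4 library of T6-LOH (log2FC -1.31, adjusted p = 0.051). Cd3e, which defines T cells, had 0 counts in all 6 libraries. Kdr, a VEGF receptor of endothelium, had 191 counts over the T12-LOH and 3 over the T6-LOH libraries, 69.9-fold higher with a 95% counting interval of 23.6 to 342, while Pecam1, which defines endothelium, was below the filter in both lines. Pdgfra, a PSC marker, was at 1.38 to 2.42 CPM in T12-LOH and 0.657 to 1.06 CPM in T6-LOH, against 485 to 824 CPM in the matched PSC libraries. Whether other cells contributed to these values was not tested.

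The largest single differences were genes on in one line and off in the other. Igfbp3, a secreted binding protein of insulin-like growth factors, had 52.0, 40.3 and 46.9 CPM in T12-LOH and no count in T6-LOH with PSC4, at least 1409-fold higher. T69A had 13.4 and 11.3 CPM of Igfbp3. Zrsr1, a splicing factor gene that is imprinted in mice, was at least 755-fold higher and Dmd, dystrophin, at least 260-fold higher, both also present in T69A. Slco3a1, an organic anion transporter, had 1864 counts over the T12-LOH and 1 over the T6-LOH libraries, 2046-fold higher with a 95% counting interval of 367 to 80855. Pxdn, the matrix enzyme peroxidasin, had 40.7 to 46.8 CPM in T12-LOH and at most 0.118 CPM in T6-LOH. Pxdn was at 0.486 and 0.0827 CPM in T69A.

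The largest decreases in T12-LOH had the same form. Arhgap44, a GTPase activator, had 1 count over the T12-LOH and 3723 over the T6-LOH libraries, 3392-fold lower with a 95% counting interval of 608 to 134006. Fmr1nb, a cancer-testis gene, had at most 0.0843 CPM in T12-LOH and 36.7 to 37.8 CPM in T6-LOH (log2FC -9.47), and was at 0 in T69A. Il1rl2, the IL-36 receptor, had 0.189 to 0.428 CPM in T12-LOH and 43.3 to 45.8 CPM in T6-LOH (log2FC -7.32). Kazn, kazrin of the desmosome, had 0.0843 to 0.143 CPM in T12-LOH and 18.9 to 20.3 CPM in T6-LOH (log2FC -7.45), and Cldn8, a barrier claudin, was lower (log2FC -6.85). The remaining genes with the largest changes were Tcaf1, Atp10a, Nmral1 and Lrch2 among those higher, and Ggt1, Col4a6, Adcy8, Adtrp, Jakmip1 and Lnx1 among those lower.

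All 4 tested sex-linked genes, which lie on the Y chromosome, were higher in T12-LOH. Ddx3y, an RNA helicase on the Y chromosome, had 15.6, 21.5 and 23.0 CPM in T12-LOH and 0 counts in T6-LOH with PSC4, at least 610-fold higher. Eif2s3y, a translation initiation factor, was at least 283-fold higher. Uty, the Y-linked relative of the histone demethylase UTX, had 497 counts over the T12-LOH and 2 over the T6-LOH libraries, 273-fold higher with a 95% counting interval of 75.1 to 2259. Kdm5d, a histone demethylase, had 4.35 to 5.69 CPM in T12-LOH and 0.118 to 0.278 CPM in T6-LOH. Ddx3y was at 0 in both T69A libraries and at most 0.0331 CPM in T6-LOH with PSC5. The labels give no sex for any line, and the matched PSC libraries had at most 0.0319 CPM of Ddx3y.

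The direction of the differences varied by chromosome. On chromosome 15, 370 of 561 genes were lower and 53 higher in T12-LOH, with a median of -0.53. Chromosomes 1 and 2 followed at -0.37 and -0.34, while X at 0.37 and chromosomes 8 and 16 at 0.34 each had the highest medians. On chromosome 8, 429 of 747 genes were higher and 71 lower. T6-LOH with PSC5 over T6-LOH with PSC4 gave chromosome medians between -0.06 and 0.04. Genes of 1 chromosome are not independent, and these medians are a description without a test.

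On each chromosome, the genes with a mean log2 CPM of at least 1 were then divided into 8 runs of consecutive genes. This division was chosen after the data were seen. The genes counted beside Myc met the same minimum. Of 160 runs, 10 had a median beyond 0.5 in size between the lines, and 0 did so between T6-LOH with PSC5 and T6-LOH with PSC4. The first 3 runs of chromosome 15 had medians of -0.99, -1.05 and -0.93. The last of them holds Myc and also Sqle, Asap1 and Adcy8, and of the 10 measured genes on either side of Myc, 9 before it and 10 after it were lower in T12-LOH. Chromosome 9 changed sign along its length. The run with the highest value had 76 of 85 genes higher and a median of 0.73, whereas the run from Twf2 to Ptpn23 had 78 of 85 genes lower and a median of -0.92. Gene order came from the GENCODE M21 annotation, an earlier build than that of the counts.

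**Figure D5:**
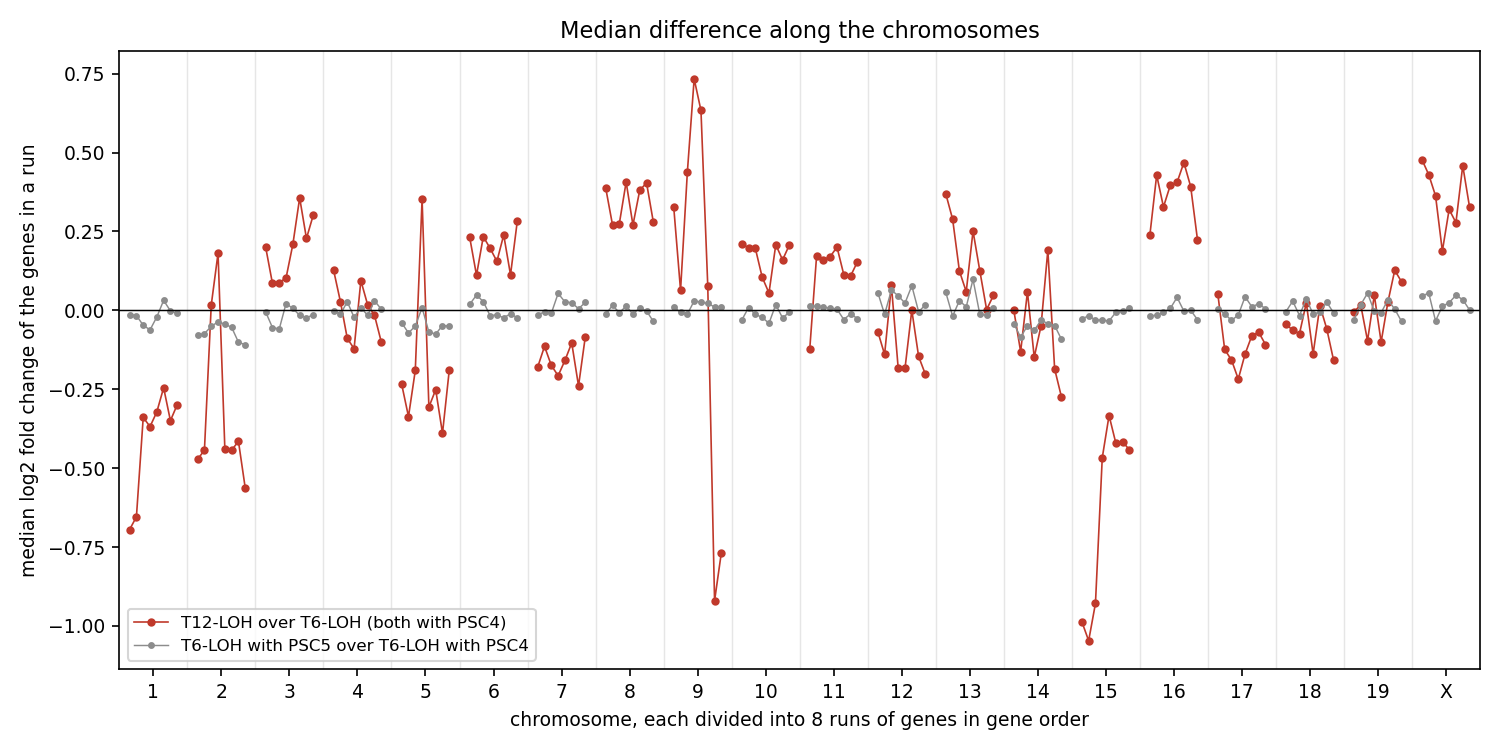
Median log2 fold change of the genes in each of 8 runs per chromosome, in gene order, for T12-LOH over T6-LOH (red) and for T6-LOH with PSC5 over T6-LOH with PSC4 (grey). The red line reaches -1.05 on chromosome 15 and 0.73 on chromosome 9, while the grey line stays between -0.11 and 0.10.

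The differences were also set beside the T69A line. T12-LOH over T69A and T69A over T6-LOH were fitted over all 11 organoid libraries, and the comparisons share libraries, so their values are only given side by side. The log2FC of Gata6 was -1.15 for T12-LOH over T69A and 6.34 for T69A over T6-LOH, and that of Muc5ac 0.16 and 2.82 in the same order. For T12-LOH over T69A the log2FC was 7.04 for Nrg1 (adjusted p = 0.00021), 3.41 for Inhba and 5.13 for Twist1, and for T69A over T6-LOH it was 4.05 for Nrg1 (adjusted p = 0.10), 0.49 for Inhba and -0.04 for Twist1. Tnf was at a log2FC of 1.45 for T12-LOH over T69A and 2.20 for T69A over T6-LOH, and Ccl20 at 0.92 and 2.88, with T69A between the other lines. Cxcl1 was at a log2FC of -0.79 for T12-LOH over T69A (adjusted p = 0.54) and -5.26 for T69A over T6-LOH (adjusted p = 0.0020). Kdr and Fn1 were at 3.80 and 5.69 on the log2 scale for T12-LOH over T69A.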

How the data were processed

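RNA-seq libraries of sorted tumour organoids and PSCs were used. The estimated counts (NumReads) and TPM per transcript were deposited as 1 table per library. The authors made them with Salmon 1.9.0 on GRCm39 (mm39), per the submitters' processing notes. Library kit, strandedness and annotation were not given in the sources used here. Per gene, the estimated counts were summed and rounded to whole numbers, and TPM was summed per gene. Gene names, biotypes and gene order came from GENCODE M21, in which 115973 of 117135 transcripts matched (99.0%), giving 35523 genes. Unmatched transcripts held 0.364% to 0.443% of the reads of a library and were left out.

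The 3 T12-LOH and 3 T6-LOH libraries grown with PSC4 lines were tested with the quasi-likelihood test of edgeR 4.0.16 (R 4.3.3, limma 3.58.1) on these rounded counts, with TMM scaling, filterByExpr and the PSC line as a block, which left 2 residual degrees of freedom. Adjusted p-values are Benjamini-Hochberg over all 14020 genes tested, at a threshold of 0.05, and called genes passed it. The block follows the labels, which give the same PSC line in both groups. Deviations from the group means correlated between libraries of the same PSC line at 0.126 for Rosa, 0.122 for KO A3 and 0.0524 for KO B4, over 14020 genes. No pair of libraries within a group agreed within sampling noise, with a lowest chi-square per degree of freedom of 10.2. CPM of a gene in an organoid library is counts scaled to the library total after TMM scaling. That scaling was made over the 6 compared libraries. For T6-LOH with PSC5 and T69A it was made over all 11 organoid libraries. Marker sums and values of the matched PSC libraries were scaled to the plain library total. Where a group had 0 counts, a fold is a bound against a floor of 3 counts over the group. Counting intervals are 95% and cover counting error only. Single values per library were compared by a 2-sided exact permutation test, whose smallest p is 0.1. The fit was also run on simulated counts with few changed genes, equal numbers in each direction and no effect of the PSC line. That run is no check of the fit where most genes are called, as here. Promoter sequences came from RefSeq on GRCm38.p6, a different build from that of the counts, and were matched by symbol.

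Members and gene lists were chosen with earlier results of these data known. Genes named were, per direction, the 12 protein-coding genes with the largest change among called genes whose mean log2 CPM reached 2 and that had no overlap between the groups. To these were added the 5 members of each of 29 lists with the smallest p, and a set of anchor genes given whatever their value. Genes outside this rule are said to be chosen after their values were seen. Alternatives were DESeq2 size factors, no filter, DESeq2 1.42.0, no block, all 11 organoid libraries, protein-coding genes only and leaving out each library. In the blocked fit, a left-out library leaves its partner alone in its block, where the partner adds nothing to the difference between the lines. Leaving out the T12-LOH or the T6-LOH library of a PSC line is thus nearly the same check. These fits amount to leaving out each of 3 pairs. T6-LOH libraries grown with PSC5, in place of those grown with PSC4, were an alternative chosen after seeing the data. Tables were handled with pandas 2.3.3 and SciPy 1.17.1 in Python 3.11.15. Some results under the naming rule are not reported here.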

Additional observations from a re-analysis of the deposited data

How the results depend on the processing

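With DESeq2 size factors, no filter, DESeq2, all 11 organoid libraries, protein-coding genes only or each library left out in turn, 7252 to 9128 genes were called, against 8922. With no replicate block, 8607 genes were called, 2601 of them at 2-fold or more, against 2610 with the block. Without the pairing by PSC line, Hnf4a, Cdx2, Muc1, Ccn2 and Cd68 missed the threshold, while Krt5, Tff3 and Erbb3 passed it. With T6-LOH grown with PSC5, chosen after seeing the data, 7483 genes were called, and 2359 at 2-fold or more. Of 181 genes named with values, 149 kept their direction and their side of the threshold in all 13 alternatives. Of 58 counts of list members at 2-fold or more, 42 stayed within 1.5 times their value in all of them.

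Direction turned for 6 genes. Against T6-LOH with PSC5 the log2FC was -0.56 for Stat2, -1.56 for Ifit3, 0.13 for Hes1, -0.10 for Mki67 and -0.0047 for Smad4, and it was -0.0104 for Smad4 with no filter. With each library left out in turn the log2FC ran from -0.031 to 0.176 for Krt20, from -0.0123 to 0.0203 for Smad4 and from -0.0176 to 0.0355 for Mki67. None of these values passed the threshold, and the cause was not tested. With 1 tumour line a group, differences between tumours in general were beyond this design.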
